A study of Mus musculus with 6 samples.

Results

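Glucose is carried into a cell by transporters of the SLC2A family, split by the enzymes of glycolysis into pyruvate, and then either reduced to lactate or carried into mitochondria and turned into acetyl-CoA by the pyruvate dehydrogenase complex. The expression of 36 listed genes of this route was followed in mouse leukaemic pre-B cells: 3 glucose transporters, the enzymes from hexokinase to lactate dehydrogenase, the PFKFB enzymes that tune phosphofructokinase, the mitochondrial pyruvate carrier, and the pyruvate dehydrogenase complex with its inhibitory kinases. A gene was measured if the array had a probe set carrying its symbol and no other, and the brightest such probe set over the 6 arrays was taken. This gave 31 of the 36 listed genes, out of 19938 genes named on the array. Gapdh, the glyceraldehyde-3-phosphate dehydrogenase gene, was carried only by probe sets with several symbols, and Gpi1, Eno1, Pfkfb1 and Mpc2 were not named by the array annotation; these 5 genes were not analysed here. Of the 31 genes, 30 were bright enough to be tested, and Pdk4 was not.

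The cells were pre-B cells of the C57BL/6 strain, transformed with BCR-ABL1, the fusion kinase that drives Philadelphia chromosome-positive acute lymphoblastic leukaemia. Every sample was Inpp5d fl/fl, so that the gene of the lipid phosphatase SHIP1 could be removed by Cre recombinase. Cells of 3 arrays were transduced with PMIP-CRE-ERT2, a Cre recombinase activated by tamoxifen (Cre-labelled arrays, Cre-ERT2 in the plots), and cells of 3 arrays with PMIP-ERT2, the tamoxifen-binding domain without Cre (ERT2 control). Both groups received 4OH-Tamoxifen at 0.5 µM for 2 days before total RNA of the puromycin-resistant cells was taken. No group carried Cre without the floxed alleles and none went without tamoxifen, so Cre activity and loss of Inpp5d cannot be told apart. The labels do not state if replicates are separate cultures, so the p-values reflect variation between these 6 arrays, and that variation may be purely technical.

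The array signal of the targeted gene did not fall. Inpp5d read 13.20, 13.21 and 13.17 on ERT2 control arrays 1, 2 and 3 and 13.37, 13.34 and 13.34 on the Cre-labelled arrays 1, 2 and 3 (log2 values throughout), a difference of 0.16 ± 0.041 (SE, n = 3 per group; limma adjusted p = 0.0545). Inpp5d was called higher in 5 of 10 other settings that kept all arrays, namely the filter at the 50th percentile (0.0283), quantile normalization (0.0485), loess (0.0367), trend and robust estimation (0.00364) and array weights (0.0199), and not after centring (0.087, adjusted p = 0.269). No source used here says if its probes cover the exons removed by Cre, so the groups are called by their labels. B lineage markers were bright in both groups: the mean log2 value over 6 measured markers (Cd79a, Cd79b, Vpreb1, Igll1, Ebf1 and Pax5) ranged from 13.39 to 13.39 over the control arrays and from 13.37 to 13.40 over the Cre-labelled arrays. Of 7 myeloid markers, 4 lay under the limit of detection used here, and the mean over the list ranged from 7.51 to 7.57 in the controls and from 7.72 to 7.83 in the Cre-labelled arrays. Lyz2, the lysozyme gene of myeloid cells, was the 1 of 3 tested myeloid markers that rose, by 0.79 ± 0.099. The mean over 5 stromal markers ranged from 8.29 to 8.38 and from 8.40 to 8.58. That over 6 T and NK markers, 3 of them under the cut, ranged from 7.09 to 7.16 and from 7.17 to 7.28. Of 5 erythroid markers 2 were measured, with a mean from 7.69 to 7.77 and from 7.76 to 7.88. Dim genes in general read higher in the Cre-labelled arrays, with medians from 0.088 to 0.12 in the 4 dimmest of 10 bins by mean log2 value. Median differences of tested markers were 0.20 (myeloid), 0.14 (stromal), 0.16 (T and NK) and 0.11 (erythroid, 1 gene). With the median of each gene's own bin taken off, they were 0.086, 0.087, 0.046 and -0.012. The part of these markers in the results below was not tested. Cre-labelled array 3 stood closer to ERT2 control arrays 3 and 1 (Pearson's r across probe sets 0.997 and 0.996, a description, since probe sets are not independent) than to Cre-labelled arrays 1 and 2 (0.994 and 0.995). In RNA of a whole culture, fewer cells that express a gene and less RNA per cell cannot be told apart.

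Many genes of glucose uptake and of the upper steps of glycolysis fell. Of 30 genes tested, 11 fell, 2 rose and 17 did not pass limma's test at an adjusted p under 0.05. Those that fell were the transporter genes Slc2a1 and Slc2a3, the hexokinase gene Hk2, all 3 phosphofructokinase genes (Pfkl, Pfkm and Pfkp), Aldoc, Tpi1, Pgk1, the kinase gene Pdk1 and the pyruvate dehydrogenase subunit gene Pdha1. Those that rose were the transporter gene Slc2a6 and the kinase gene Pdk2. Over all 14953 genes tested, 7.62% passed, 4.13% lower and 3.5% higher, so the share of members that fell (36.7%) lay above the background and the share that rose (6.67%) rests on 2 genes. Of all calls 45.9% were higher, but 13.3% after each array was centred on its median, where 14 members fell and 0 rose (2 were higher at an unadjusted p under 0.05 in limma). Centring also raised the calls lower over all genes tested from 617 to 1880. The list was chosen with earlier results of these data known, so its direction is no independent evidence. The changes were small: the genes that fell did so by 1.14-fold to 1.38-fold. The median difference over the 30 genes was -0.15 on the log2 scale, beside 0.026 over all genes tested.

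The number of members called depended on the arrays used. It was 2, 3 and 4 lower without ERT2 control array 1, 2 or 3, and 4, 9 and 11 lower without the Cre-labelled array 1, 2 or 3. Calls over all genes tested, 1140 with all arrays, moved as well. They numbered 116, 194 and 347 without ERT2 control array 1, 2 or 3. Without the Cre-labelled array 1, 2 or 3 they numbered 136, 525 and 3042. Pfkl and Aldoc passed in all 6 of these fits and Tpi1 in 5, failing without ERT2 control array 1 (adjusted p = 0.0522). Slc2a3 passed in 4 of the 6. Slc2a1, Hk2, Pfkp, Pdk1 and Pdha1 each passed in 2, and Pfkm and Pgk1 in 1. Among these 6 fits, Slc2a6 and Pdk2 passed only in the one without Cre-labelled array 3, where 3 members were higher. In that fit 55.8% of the 3042 calls over all genes were higher. Of the 11 genes that fell, 10 were least reduced on the Cre-labelled array 3 and 9 most reduced on the Cre-labelled array 1. Over the other settings of filter, probe sets, scaling, model and arrays, the 13 genes called kept their sign in all of 208 values. This was largely fixed in advance, since their groups do not overlap and leaving out an array cannot turn such a sign. Changes of filter, and most changes of model, leave the difference as it is. In 63 of the 208 values the call was lost.

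**Figure D1:**
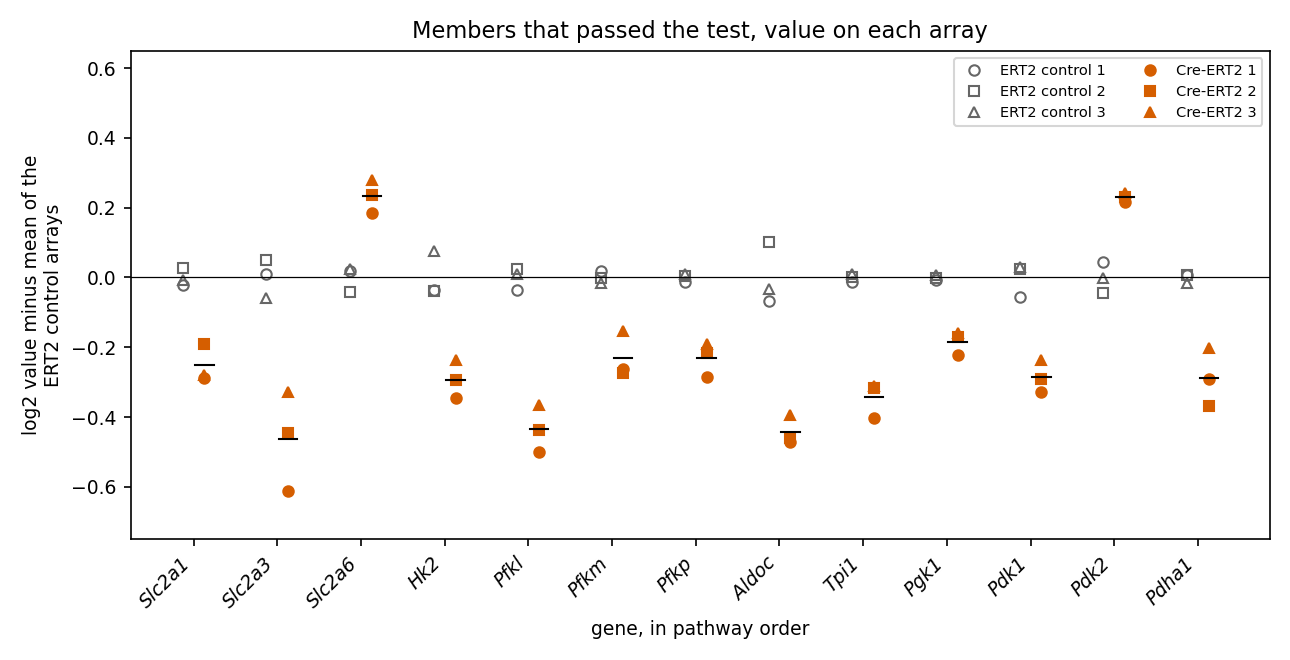
Each point is the log2 value of 1 array minus the mean of the 3 ERT2 control arrays for that gene, for the 13 members that passed the test, in pathway order; open symbols are ERT2 control arrays, filled symbols Cre-labelled arrays, and short bars the mean of the latter. The filled symbols of 11 genes lie below all their controls and those of Slc2a6 and Pdk2 above.

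Groups that did not overlap were also more frequent than calls. In 17 of the 30 members all Cre-labelled arrays lay below all controls, beside 17.7% of all genes tested, and in 4 members they lay above, beside 20.7% (38.5% in either direction). The 17 included 6 genes that did not pass: Aldoa, Eno3, Ldha, Pdhb, Dlat and Dld. The 4 included Hk3 and Ldhb, which did not pass either.

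The difference between the groups varied with brightness, and the members were set against genes as bright as they are. When the genes tested were cut into 10 equal bins by mean log2 value, the median difference was 0.11, 0.12, 0.12 and 0.088 in the 4 dimmest bins, between -0.061 and -0.0055 in bins 5 to 9, and -0.0090 in the brightest. The array medians ranged from 8.19 to 8.23 in the controls and from 8.24 to 8.37 in the Cre-labelled arrays, and the part of this shift in the results was not tested. After the median of its own bin was taken from each member, the median over the 30 members was -0.17. In the brightest bin 3 of 8 members fell, beside 2.21% of the genes in it, and in bin 8 3 of 6, beside 7.22%. In bin 6 all 3 members fell (Hk2, Pfkm and Aldoc), beside 8.56%. Bin 9 had 1 of 3 lower, beside 5.48%, and bin 5 had 1 of 4 lower, beside 4.55%, and 1 higher. Neither of the 2 members in bin 4 was called, the 1 member in bin 7 rose, and bins 2 and 3 held no member. In the dimmest bin, which held Hk3, Eno2 and Ldhb, no member was called by limma, and 2 had an unadjusted p under 0.05.

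**Figure D2:**
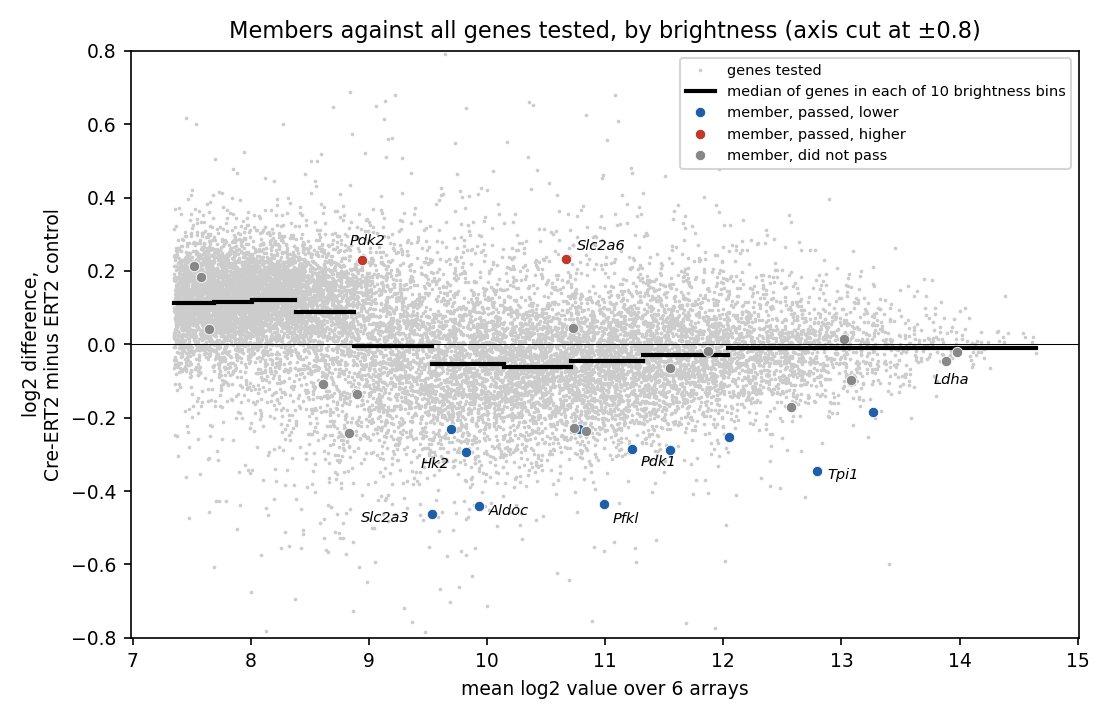
Mean log2 value over 6 arrays (horizontal) against the log2 difference, Cre-ERT2 minus ERT2 control (vertical), with all genes tested in light grey, the median of each of 10 brightness bins as a black line and the members as large points; 23 genes lie outside the vertical axis of 0.8 either way. Blue members that fell lie below the bin medians, and the bin medians are near 0.11 at the dim end.

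The glucose transporters did not move as one. Slc2a1, which encodes GLUT1, the transporter of most growing cells, read 12.15, 12.20 and 12.16 on the control arrays and 11.88, 11.98 and 11.89 on the Cre-labelled arrays. Each of the latter lay below every control, and Slc2a1 fell by 0.25 on the log2 scale (SE 0.047, adjusted p = 0.0244). Slc2a3, which encodes the high-affinity transporter GLUT3, read 9.77, 9.81 and 9.71 in the controls and 9.15, 9.32 and 9.44 in the Cre-labelled arrays. It was 1.38-fold lower (-0.46 ± 0.073, SE; adjusted p = 0.0155), with Cre-labelled array 1 the lowest. Without that array its difference was -0.39. Slc2a6, which encodes GLUT6, a transporter of intracellular membranes, went the other way. It read 10.57, 10.51 and 10.58 in the controls and 10.74, 10.79 and 10.83 in the Cre-labelled arrays, a rise of 0.23 ± 0.047 (adjusted p = 0.0300). The rise of Slc2a6 did not pass without the filter on dim genes (adjusted p = 0.0582) or after each array was centred on its median (0.16, adjusted p = 0.0782). Within an array, Slc2a1 minus Slc2a6 moved by -0.49 between the groups, with no overlap.

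Hexokinases commit glucose by phosphorylating it. Hk2, the inducible enzyme bound to mitochondria, read 9.93, 9.93 and 10.05 in the controls and 9.62, 9.68 and 9.73 in the Cre-labelled arrays, 1.23-fold lower (-0.29 ± 0.053, adjusted p = 0.0223). All Cre-labelled arrays lay below the controls for Hk2. Hk1, the enzyme present in most tissues, had a difference of -0.021 (95% interval from -0.12 to 0.077, adjusted p = 0.741), but its value is uncertain. The brightest probe set of Hk1 is tied to the gene by 1 sequence record, and 16 other probe sets that share this record list Hk1 together with the ribosomal protein gene Rpl17. The second probe set of Hk1, which carries RefSeq transcripts, read 10.59, 10.57 and 10.62 in the controls and 10.71, 10.67 and 10.71 in the Cre-labelled arrays. With it in place of the first, the difference of Hk1 was 0.10 (adjusted p = 0.134), so its sign rests on the choice of probe set. Hk3, a hexokinase of myeloid cells, was dim, at 7.45, 7.42 and 7.36 in the controls and 7.59, 7.83 and 7.46 in the Cre-labelled arrays. Its difference of 0.21 ± 0.087 (adjusted p = 0.129) lay beside a median of 0.11 for genes as dim.

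Phosphofructokinase, the main control point of glycolysis, is built from liver, muscle and platelet type subunits, and the genes of all 3 fell. Pfkl, the liver type, read 11.17, 11.23 and 11.22 in the controls and 10.71, 10.77 and 10.84 in the Cre-labelled arrays. This was 1.35-fold lower (-0.43 ± 0.050, 95% interval from -0.55 to -0.32, adjusted p = 0.00486). Pfkm, the muscle type, read 9.83, 9.81 and 9.79 against 9.55, 9.54 and 9.66, a difference of -0.23 ± 0.049 (adjusted p = 0.0343). For Pfkp, the platelet type, the controls read 10.88, 10.90 and 10.90 and the Cre-labelled arrays 10.61, 10.67 and 10.70, also a difference of -0.23 ± 0.045 (adjusted p = 0.0275). The call of Pfkm ended without the filter on dim genes, and that of Pfkp ended there and after quantile normalization was run again. The measured fall of Pfkl was the largest of the 3. Within an array, Pfkl minus Pfkm and Pfkl minus Pfkp both moved by -0.20, and neither overlapped between the groups. The exact permutation test gave p = 0.1 for each, the smallest it can give, so this is described and not called. Pfkm minus Pfkp was -1.08 ± 0.029 (SD, n = 3) in the controls and -1.08 ± 0.050 in the Cre-labelled arrays, and its values overlapped.

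The PFKFB enzymes make and break fructose 2,6-bisphosphate, the allosteric activator of phosphofructokinase. None of the 3 tested genes passed limma's test, and none had an unadjusted p under 0.05. Pfkfb3, a form whose kinase activity far exceeds its phosphatase activity, read 10.75, 10.70 and 10.67 in the controls and 10.75, 10.70 and 10.81 in the Cre-labelled arrays. The 95% interval of its difference ran from -0.066 to 0.15. Pfkfb4 had a difference of -0.11 (interval from -0.24 to 0.020) and Pfkfb2 of -0.13 (interval from -0.30 to 0.037). Within an array, Pfkfb3 minus Pfkfb4 moved by 0.15, without overlap between the groups.

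Aldolase splits fructose 1,6-bisphosphate, and triosephosphate isomerase interconverts both products. Aldoc, the brain type aldolase, read 10.08, 10.25 and 10.11 in the controls and 9.68, 9.69 and 9.75 in the Cre-labelled arrays, 1.36-fold lower (-0.44 ± 0.057, adjusted p = 0.00650). Its relative Aldoa, the muscle and general form, lay between 13.10 and 13.17 in the controls and reached at most 13.06 in the Cre-labelled arrays. The groups of Aldoa did not overlap, but the difference of -0.098 ± 0.044 did not pass (adjusted p = 0.160, and 0.0496 with trend and robust estimation). Within an array, Aldoc minus Aldoa moved by -0.34, and the groups were apart. Tpi1, the triosephosphate isomerase gene, read 12.95, 12.96 and 12.97 in the controls and 12.56, 12.65 and 12.65 in the Cre-labelled arrays. The control arrays of Tpi1 were close together (SD 0.012), and the gene fell by 0.34 ± 0.046 (adjusted p = 0.00711).

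The lower steps of glycolysis, in which ATP is made, held 1 call among 5 tested genes. Pgk1, which encodes phosphoglycerate kinase, read 13.35, 13.36 and 13.37 in the controls and 13.14, 13.19 and 13.20 in the Cre-labelled arrays (-0.18 ± 0.043, adjusted p = 0.0412). Its other 2 probe sets, which carried identical values, both had a difference of -0.17. Pgk1 lost its call without the filter on dim genes. Pgam1, the phosphoglycerate mutase gene, had a difference of 0.013 (interval from -0.13 to 0.16), and its other 2 probe sets -0.080, so its sign depended on the probe set. Both Pgk1 and Pgam1 have near-identical copies elsewhere in the genome, and the files do not show if the probes separate them. Pkm, which encodes the pyruvate kinase of proliferating cells, varied among the controls (12.69, 12.49 and 12.80) and read 12.41, 12.52 and 12.53 in the Cre-labelled arrays. The groups of Pkm overlapped and its difference of -0.17 ± 0.079 did not pass (adjusted p = 0.166, and 0.0451 with array weights); that of its second probe set was -0.047. Among the enolases, Eno3, the muscle form, had a difference of -0.13 ± 0.048 (adjusted p = 0.0986, but 0.0327 with array weights and 0.0428 after centring) and the dim Eno2, the neuronal form, of 0.040, which turned to -0.067 after quantile normalization, -0.069 after loess and -0.032 after centring.

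Lactate dehydrogenase converts pyruvate to lactate, and neither subunit gene passed on its brightest probe set. Ldha, the muscle type subunit, read 13.89, 13.89 and 13.95 in the controls and 13.88, 13.84 and 13.87 in the Cre-labelled arrays. Its mean lay at the 99.7th percentile of gene means, and the 95% interval of its difference ran from -0.14 to 0.054. Ldhb, the heart type subunit, was dim, at 7.58, 7.56 and 7.33 against 7.74, 7.64 and 7.63. Its difference of 0.18 ± 0.074 (adjusted p = 0.127) lay beside a median of 0.11 for genes as dim, and that of its second probe set was 0.23. Ldhb was called higher when its probe sets were averaged (0.21, adjusted p = 0.0381), and its difference was 0.077 after quantile normalization and 0.073 after loess. Within an array, Ldha minus Ldhb moved by -0.23, without overlap.

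**Figure D3:**
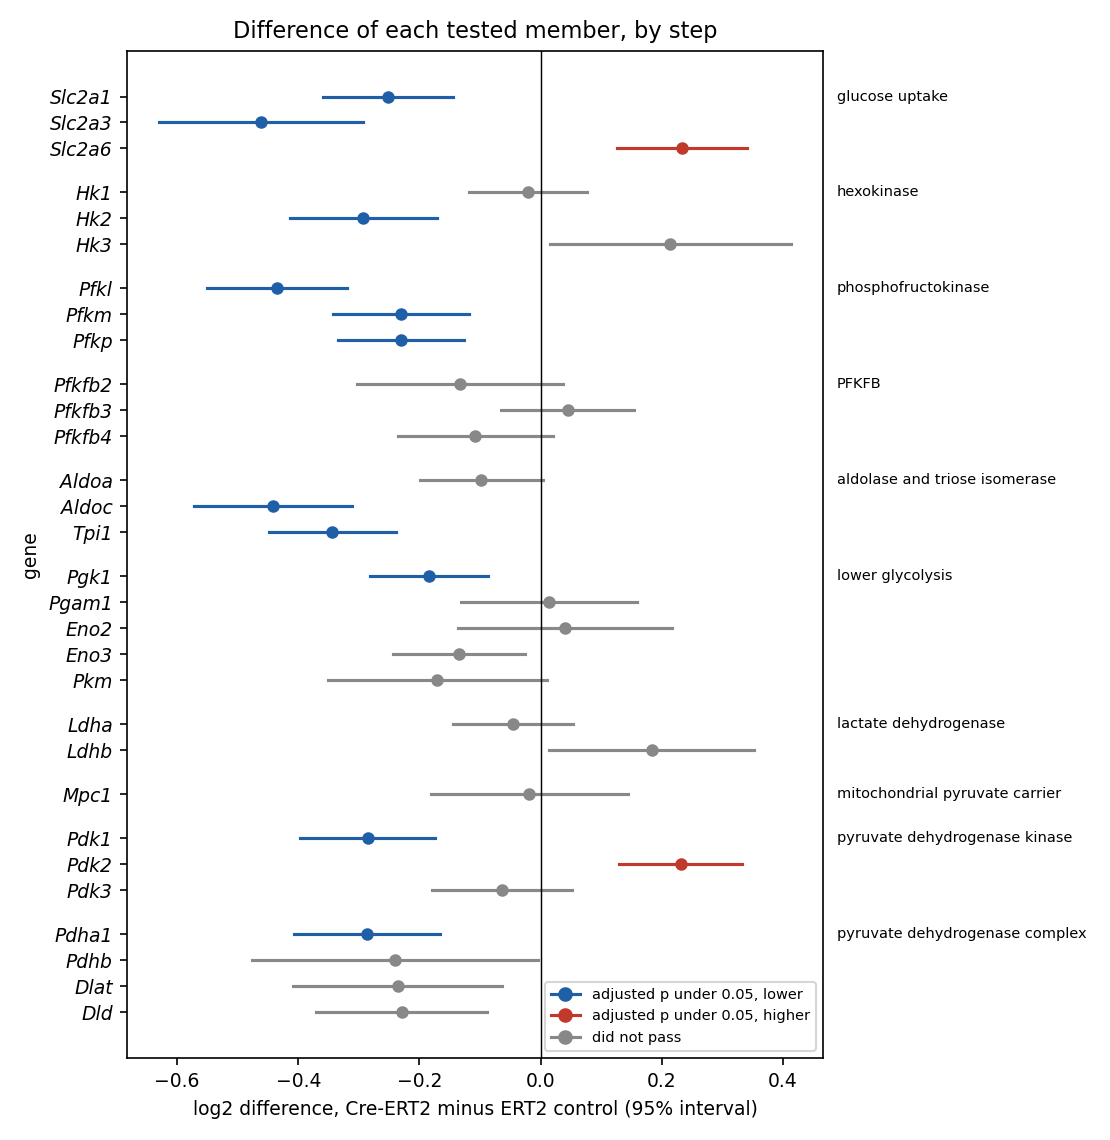
Log2 difference, Cre-ERT2 minus ERT2 control, of each of the 30 tested members (points) with the 95% interval of the limma fit (lines), grouped by step and coloured by call. Calls to the left of 0 gather from glucose uptake to triosephosphate isomerase, with 1 in lower glycolysis and Pdk1 and Pdha1 further down, and no call lies at PFKFB, lactate dehydrogenase or the pyruvate carrier.

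At the entry to mitochondria, the pyruvate dehydrogenase kinases moved in opposite directions. These kinases phosphorylate the complex and switch it off. Pdk1, the form induced by hypoxia, read 11.31, 11.40 and 11.40 in the controls and 11.04, 11.08 and 11.13 in the Cre-labelled arrays, 1.22-fold lower (-0.29 ± 0.049, adjusted p = 0.0196). Pdk2, the widely expressed form, read 8.87, 8.78 and 8.82 against 9.04, 9.06 and 9.07, 1.17-fold higher (0.23 ± 0.045, adjusted p = 0.0262). Both genes separated the groups without overlap. Pdk1 minus Pdk2 moved by -0.52 within arrays. The call of Pdk2 ended without the filter on dim genes (adjusted p = 0.0530), after quantile normalization was run again (0.0671) and after centring (0.0718), with its difference between 0.16 and 0.23. Pdk3 had a difference of -0.064 (interval from -0.18 to 0.051). Pdk4, the form induced by fasting, had a mean under the brightness cut. It read 7.22, 7.27 and 7.29 in the controls and 7.30, 7.37 and 7.12 in the Cre-labelled arrays.

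The 4 genes of the pyruvate dehydrogenase complex were all lower without overlap, beside 17.7% of all genes tested, and 1 of the 4 passed. Pdha1, which encodes the alpha subunit that the kinases phosphorylate, read 11.70, 11.70 and 11.67 in the controls and 11.40, 11.32 and 11.49 in the Cre-labelled arrays (-0.29 ± 0.053, adjusted p = 0.0237). Pdhb, the beta subunit gene, had a difference of -0.24 ± 0.10 (adjusted p = 0.145). For Dlat, the acetyltransferase gene, it was -0.24 ± 0.075 (0.0807), and for Dld, the dihydrolipoamide dehydrogenase gene, -0.23 ± 0.062 (0.0565). The count of 1 depended on the setting: Dld was called lower with the filter at the 50th percentile (0.0361), and both Dld and Dlat after centring (0.0166 and 0.0302), with trend and robust estimation (0.0229 and 0.0375) and with array weights (0.0278 and 0.0399). The Cre-labelled array 2 was the lowest for all 4 genes, at 11.32 for Pdha1, 8.46 for Pdhb, 10.54 for Dlat and 10.52 for Dld. The SD over the Cre-labelled arrays was 0.084 for Pdha1, 0.22 for Pdhb, 0.15 for Dlat and 0.11 for Dld. Mpc1, a subunit of the carrier that brings pyruvate into mitochondria, read 11.91, 11.91 and 11.82 in the controls and 11.90, 11.71 and 11.98 in the Cre-labelled arrays, with a difference of -0.018 (interval from -0.18 to 0.14).

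In all, 12 of 14 isoform pairs were measured on both sides, and in 10 the within-array difference did not overlap between the groups. The share among gene pairs at large was not computed, and of single genes tested 38.5% did not overlap. Several genes recur among the pairs and many were called on their own, so the count is a description only. With 3 arrays against 3 the exact permutation test, two-sided, cannot give a p under 0.1, which these 10 pairs reached (adjusted over the pairs, 0.12), so unequal change of isoforms is described and not called. The pairs that overlapped were Pfkm minus Pfkp and Slc2a1 minus Slc2a3. The latter moved by 0.21, with values of 2.38, 2.39 and 2.46 in the controls and 2.73, 2.66 and 2.46 in the Cre-labelled arrays. Hk1 minus Hk2 moved by 0.27, or by 0.40 with the second probe set of Hk1.

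**Figure D4:**
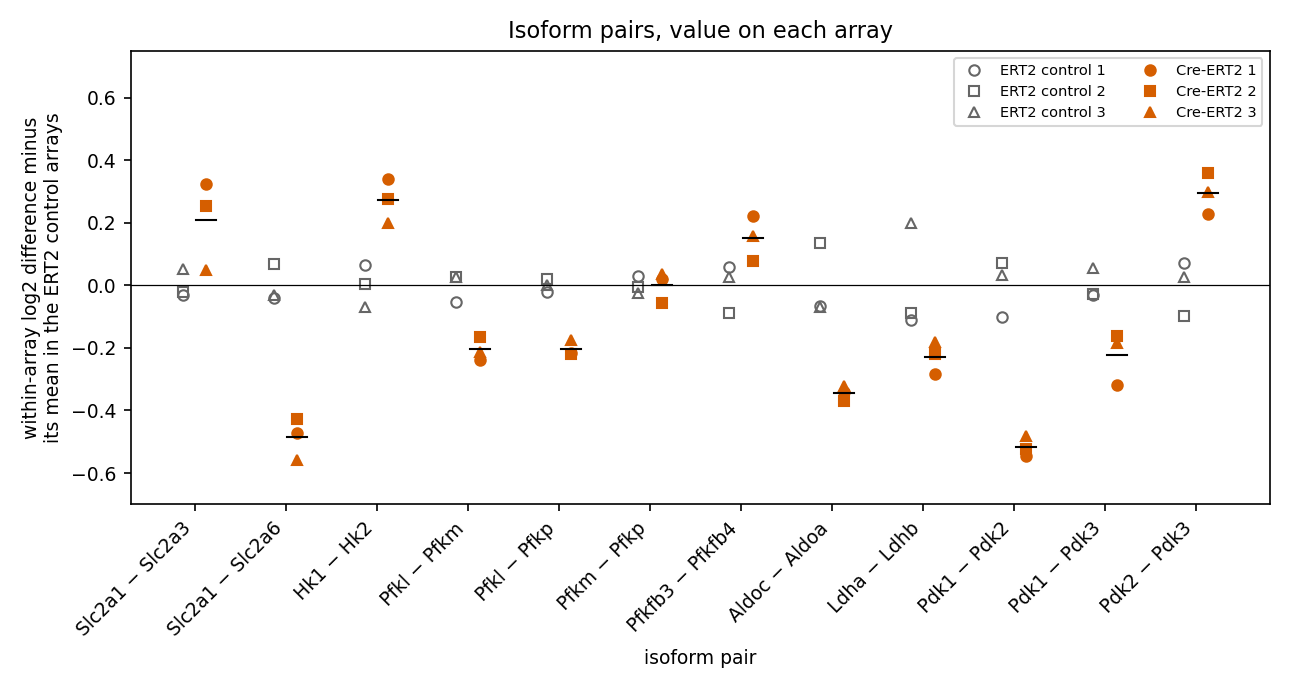
For each pair the log2 value of the first gene minus that of the second was taken on each array, and the mean of the 3 ERT2 control arrays subtracted; open symbols are controls, filled symbols Cre-labelled arrays, short bars their mean. Pdk1 minus Pdk2 and Slc2a1 minus Slc2a6 moved by -0.52 and -0.49, and Pfkm minus Pfkp stayed near 0.

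As many members moved together, their promoters were searched for the short core of the hypoxia response element (ACGTG or GCGTG, either strand) and for the E-box CACGTG that MYC and MondoA family factors can bind; an E-box holds the ACGTG core on both strands and was counted in both searches. Windows ran from 250 bases before to 50 after each gene start in RefSeq (GRCm38.p6). They were found for 35 of the 36 listed genes, and not for Slc2a3. A core was present in 40 of 55 windows of the members (72.7%), beside 43.8% of all 32851 windows; the E-box was present in 9.09% and 7.15%. Cores were in 80% of windows of genes that fell and in 73.1% of windows of genes that did not pass. The members' windows held a median of 18 CpG dinucleotides against 7 over all windows, and both forms of the core contain CpG. The windows below are those of 4 genes that fell and of both genes that rose, taking the first listed gene start, in the direction of transcription, with cores and E-boxes in capitals. They lie at chr10:78009758-78010057 (Pfkl, minus strand), chr6:124814109-124814408 (Tpi1, minus), chr4:119108495-119108794 (Slc2a1, plus), chr2:71872974-71873273 (Pdk1, plus), chr2:27027949-27028248 (Slc2a6, minus) and chr11:95041322-95041621 (Pdk2, minus).
Pfkl: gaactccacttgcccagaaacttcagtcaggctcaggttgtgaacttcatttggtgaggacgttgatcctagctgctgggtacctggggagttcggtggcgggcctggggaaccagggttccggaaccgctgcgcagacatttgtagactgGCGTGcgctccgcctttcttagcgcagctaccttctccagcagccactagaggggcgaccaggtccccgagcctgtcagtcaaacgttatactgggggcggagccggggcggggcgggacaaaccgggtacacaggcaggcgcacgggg
Tpi1: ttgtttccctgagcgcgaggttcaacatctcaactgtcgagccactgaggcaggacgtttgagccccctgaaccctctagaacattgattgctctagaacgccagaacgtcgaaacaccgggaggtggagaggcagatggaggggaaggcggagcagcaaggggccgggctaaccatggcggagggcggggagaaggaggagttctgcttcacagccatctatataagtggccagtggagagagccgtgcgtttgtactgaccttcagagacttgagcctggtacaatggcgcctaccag
Slc2a1: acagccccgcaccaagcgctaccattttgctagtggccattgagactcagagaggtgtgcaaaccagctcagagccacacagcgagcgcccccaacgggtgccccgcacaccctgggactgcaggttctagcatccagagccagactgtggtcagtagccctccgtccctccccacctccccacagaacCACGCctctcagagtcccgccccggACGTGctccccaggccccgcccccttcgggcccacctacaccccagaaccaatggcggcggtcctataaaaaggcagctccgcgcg
Pdk1: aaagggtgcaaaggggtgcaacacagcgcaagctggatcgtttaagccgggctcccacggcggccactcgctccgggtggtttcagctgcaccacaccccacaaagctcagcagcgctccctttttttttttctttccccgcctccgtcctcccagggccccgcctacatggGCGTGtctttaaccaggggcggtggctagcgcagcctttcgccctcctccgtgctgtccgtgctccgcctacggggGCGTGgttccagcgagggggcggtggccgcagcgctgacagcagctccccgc
Slc2a6: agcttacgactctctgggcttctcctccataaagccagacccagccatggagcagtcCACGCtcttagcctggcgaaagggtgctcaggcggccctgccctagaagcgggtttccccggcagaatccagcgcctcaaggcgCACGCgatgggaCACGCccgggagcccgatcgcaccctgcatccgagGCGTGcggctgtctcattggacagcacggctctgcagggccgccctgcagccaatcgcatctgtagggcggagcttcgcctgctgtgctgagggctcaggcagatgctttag
Pdk2: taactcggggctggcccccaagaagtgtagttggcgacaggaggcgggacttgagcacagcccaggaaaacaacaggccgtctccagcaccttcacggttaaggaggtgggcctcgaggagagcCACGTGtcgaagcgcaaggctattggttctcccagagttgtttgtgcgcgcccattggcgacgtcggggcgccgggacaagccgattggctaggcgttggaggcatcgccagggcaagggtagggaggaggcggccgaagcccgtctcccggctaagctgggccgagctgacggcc
Pfkl holds 1 core, Slc2a1 and Pdk1 2 each and Slc2a6 4, whereas Tpi1, which fell too, holds 0 in this window. The first window of Pdk2, a gene that rose, holds the E-box, at position -126 from the start. Matches thus occurred in genes that fell and in genes that rose, and a match is a description of the letters and no sign of binding.

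Genes next to the route were read from lists of its branches, beside a background of 4.13% called lower and 3.5% higher over all genes tested. Of 7 tested genes on the pentose phosphate list, limma called 0 and 0 had an unadjusted p under 0.05, with a median difference of -0.036; Rpia, Pgls and Taldo1 had the smallest p, with differences of -0.12, -0.099 and 0.067. Of 5 genes of lactate export and glycerol phosphate, 1 fell: Slc16a3, which encodes the lactate exporter MCT4, was 9.03 ± 0.040 (SD, n = 3) in the controls and 8.54 ± 0.031 in the Cre-labelled arrays, with no overlap (-0.49 ± 0.045, SE; limma adjusted p = 0.00206). Slc16a1, which encodes the transporter MCT1, had a difference of 0.057 (adjusted p = 0.461). Pgm1, a phosphoglucomutase gene that links glucose 6-phosphate to glycogen, fell by 0.32 ± 0.066, the 1 call among 10 tested genes of side reactions and other isoforms. Among 5 partners of the pyruvate dehydrogenase complex and pyruvate carboxylase, Pdp2, a phosphatase that reactivates the complex, fell by 0.25 ± 0.057 (adjusted p = 0.0399), whereas Pdp1 had a difference of 0.0044. Pdpr, which encodes a regulatory subunit of that phosphatase, had a difference of 0.13 (adjusted p = 0.110). Pdhx, which encodes the binding protein of the complex, had a difference of -0.12 (adjusted p = 0.198).

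Beyond pyruvate entry, 2 of 15 tested genes of the tricarboxylic acid cycle fell (13.3%, beside the background of 4.13%). Suclg2, of succinate-CoA ligase, fell by 0.37 ± 0.075 and Idh3a, of isocitrate dehydrogenase, by 0.22 ± 0.043. Sucla2, another succinate-CoA ligase subunit gene, had a difference of -0.23 ± 0.061 (adjusted p = 0.0545). The median over the cycle was -0.074, with 10 of 15 genes lower without overlap, beside -0.15 and 17 of 30 for the members. Over all genes tested 17.7% were lower without overlap. Whether glycolysis and the cycle differ was not tested. Of the factors known to drive glycolytic genes, Myc fell by 0.22 ± 0.042 (adjusted p = 0.0259), from 13.21, 13.24 and 13.18 to 12.98, 12.98 and 13.01. Hif1a had a difference of -0.12 ± 0.059 (adjusted p = 0.183), and Epas1, which encodes HIF2 alpha, rose by 0.43 ± 0.072 (adjusted p = 0.0177). Genes as bright as Epas1 had a median difference of 0.088.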

How the data were processed

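Total RNA of 6 samples, 3 Cre-labelled and 3 ERT2 control, was measured on mouse Affymetrix arrays. The deposited values are log2 expression values, covering 35556 probe sets and ranging from 2.88 to 14.9 with none missing; the authors used RMA and Partek 6.5, per the submitters' processing notes, which give no role or setting. No source used here names a genome build. Array medians ranged from 8.19 to 8.37, Pearson's r between arrays across probe sets (which are not independent) from 0.988 to 0.997, and array values carry no count depth.

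Of the probe sets, 21789 carried 1 gene symbol, 1621 several and 12146 none; those with several were not used. For a gene with several probe sets, the one with the highest mean was kept. Genes with a mean under the 25th percentile (7.35, the brightness cut used here, not a measured limit of detection) were left out, leaving 14953. A difference is the Cre-labelled mean minus the control mean. It was tested by the moderated, two-sided test of limma 3.58.1 (R 4.3.3; eBayes prior with 4.31 degrees of freedom), and adjusted p-values (Benjamini-Hochberg, all genes) under 0.05 were called. Isoform pairs were compared by an exact permutation test over arrays (scipy 1.17.1). No batch label was used here. Replicate numbers did not pair the samples: deviations from the group means of same-numbered arrays correlated at 0.069, -0.17 and -0.40.

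The members, gene lists and the rule for named genes (all members, Inpp5d, and up to 3 genes of each neighbouring list with the smallest p) were chosen with earlier results of these data known. Slc16a1, Pdp1, Hif1a and Txnip were named outside the rule, after their values were seen. In simulated data for this comparison over 14953 genes, 52% of 50 genes raised by 0.3, 58% of 50 lowered by 0.3, 80% raised by 0.5 and 100% raised by 1 on the log2 scale were recovered, with 7 false calls. The simulated noise was independent between genes and between arrays, with no shift by brightness. The 7 false calls therefore do not cover effects shared by the genes of a real array. Alternatives were no filter or a 50th percentile filter on dim genes, the mean of a gene's probe sets, repeated quantile normalization, median centring, cyclic loess, trend and robust estimation, array weights, blocking on replicate number, leaving out each array in turn, and a threshold of 0.01; probe sets with RefSeq transcripts first was added after seeing the data.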

Additional observations from a re-analysis of the deposited data

How the results depend on the processing

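Counts moved with the setting. Over all genes, 1140 calls (45.9% of them higher) became 437 with no filter on dim genes, 2147 with trend and robust estimation, 2168 after centring (13.3% higher), 3993 with array weights, 143 at a threshold of 0.01, and 116 to 3042 with 1 array left out. Calls lower over all genes, 617 at first, were 629 after quantile normalization and 1880 after centring. Of the calls over all genes, 39.5% were higher with trend and robust estimation and 56.9% with array weights. Members called lower, 11 at first, were 3 at 0.01 (Pfkl, Aldoc and Tpi1), 8 with no filter, 10 after quantile normalization, 12 with the filter at the 50th percentile (Dld added), 14 after centring (Eno3, Dlat and Dld added), 14 with trend and robust estimation (Aldoa, Dlat and Dld added), 15 with array weights (Eno3, Pkm, Dlat and Dld added), and 2 to 11 with 1 array left out. Members called higher, 2 at first, were 0 at 0.01, after centring or with no filter, 1 after quantile normalization, 3 as the mean of probe sets (Ldhb added) and 0 to 3 with 1 array left out; at an unadjusted p under 0.05 limma gave 4 at first, 4 with no filter and 2 after centring. The median member difference of -0.15 was -0.18 with the filter at the 50th percentile, -0.19 after quantile normalization, -0.22 after centring, and -0.19 to -0.13 with 1 array left out. Isoform pairs without overlap numbered 10 to 11 with 1 array left out. This count could not fall under 10, since groups that do not overlap stay apart when an array is removed. Differences near 0 that did not pass turned sign: Hk1 (0.041 as the mean of its probe sets, 0.10 with RefSeq probe sets), Pgam1 (-0.049 as that mean, -0.059 after centring, -0.0059 with array weights, -0.040 to 0.070 with 1 array left out), Eno2 (-0.067 after quantile normalization, -0.069 after loess, -0.032 after centring, -0.027 to 0.11 with 1 array left out), Pfkfb3 (-0.028 after centring), Mpc1 (0.010 after loess, -0.076 to 0.058 with 1 array left out) and the pair Pfkm minus Pfkp (-0.025 after quantile normalization, -0.024 after loess, -0.017 to 0.029 with 1 array left out). With the replicate number as a block, 147 genes, 2 members lower and 0 higher were called (at an unadjusted p under 0.05, 14 and 4); the samples share only a number, and the arrays did not correlate best with their own number. Fits with an array left out, and the block, have fewer residual degrees of freedom. Centring moved the difference of every gene by the same amount, since 1 value was taken from each whole array. Pfkl thus went from -0.43 to -0.51 and Slc2a1 from -0.25 to -0.32. The cause of the remaining shifts was not tested. In the simulated data, in which fewer genes changed than were called here, differences of 0.3 were recovered in part only.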

Other observations

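Genes of the reverse route and of glucose sensing were read from short lists as well, beside the background of 4.13% called lower and 3.5% higher. Of 5 tested gluconeogenesis genes, 1 rose: Fbp1, which encodes fructose-1,6-bisphosphatase, the enzyme that opposes phosphofructokinase, read 7.51, 7.50 and 7.51 in the ERT2 control arrays and 7.77, 7.68 and 7.87 in the Cre-labelled arrays (0.26 ± 0.056, SE; limma adjusted p = 0.0343). Fbp1 is dim, and genes as dim had a median difference of 0.11. Fbp2, the muscle form, had a difference of 0.25 ± 0.085 with overlapping groups (adjusted p = 0.0910), beside a median of 0.12 for genes as dim. For G6pc3, a glucose-6-phosphatase gene, it was -0.096 (adjusted p = 0.149).

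Of 4 tested genes of glucose sensing, 1 fell. Mlx, which encodes the common partner of the glucose-responsive factors MondoA and ChREBP, had a difference of -0.21 ± 0.052 (adjusted p = 0.0472). Mlxip, which encodes MondoA, had a difference of 0.18 ± 0.047 (adjusted p = 0.0542). For Mlxipl, which encodes ChREBP, it was 0.15 ± 0.052 (adjusted p = 0.0965), beside a median of 0.12 for genes as dim. Both were higher without overlap between the groups, as were 20.7% of all genes tested. Txnip, the best known target of these factors, had a difference of 0.031 (95% interval from -0.074 to 0.14). Mycn, a relative of Myc, had a difference of 0.16 ± 0.049 (adjusted p = 0.0726), also without overlap.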
